A study of Mus musculus with 3647 samples.

Results

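Ecel1-only neurons are a class of the thalamic reticular nucleus (TRN), the thin shell of GABAergic neurons that wraps the dorsal thalamus of the mouse. They made up 32.3% of the reticular GABAergic nuclei found among 1447 TRN nuclei with values, in a series of 3647 samples. The members numbered 16, 17, 17, 17, 17, 18, 19 and 25 on the 8 plates sorted for NeuN and 87 on the plates sorted without it. They were chosen by their own measured values, given in TPM, which state each transcript's length-corrected share of a nucleus on a scale with a fixed sum; a gene counts as found where its TPM is above 0. A nucleus was kept as a reticular GABAergic neuron when Snap25 (a presynaptic SNARE protein), Gad1 and Gad2 (the enzymes that make GABA) were all found, Gad1 plus Gad2 reached 100 TPM and lay above Slc17a6 (a vesicular glutamate transporter), and Pvalb (parvalbumin) or Six3 (a homeobox factor) was found. Members then had Ecel1 above 0 and Spp1 at 0. The other reticular nuclei had Spp1 only (37.7%), neither gene (24.7%) or both (5.27%). These 8 genes made the classes, and their levels are given only as a description.

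The study measured RNA of single mouse nuclei in 96-well plates, and of single TRN neurons collected through a patch-clamp pipette (Patch-seq). The groups used here were TRN nuclei sorted by a DNA dye and an antibody against NeuN (8 plates), TRN nuclei sorted by the dye alone (13 plate names, called unselected here), and 95 Patch-seq samples. The labels give no strain, genotype, sex, age or treatment for any of them and name no animal. Each group therefore counts as 1 sample, plates may share animals, no test was made, and every ± below is the SD over plates, which describes their spread. Depth is unknown, because TPM keep no read counts, and the number of genes found in a nucleus is given in its place.

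Reticular neurons receive collaterals of thalamocortical and corticothalamic axons and send inhibition back to the thalamus. They are known for rhythmic bursts that rest on T-type calcium channels, and for their part in sleep spindles and in the gating of sensory signals. Ecel1 encodes a membrane metallopeptidase of the neprilysin family, and Spp1 encodes osteopontin, a secreted phosphoprotein. Per GENCODE M21 on GRCm38, the assembly that mm10 names, both are protein-coding genes. Ecel1 lies on chromosome 1 (87147655 to 87156521, minus strand) and Spp1 on chromosome 5 (104435118 to 104441050, plus strand).

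The start regions of the gene pair that defines the class are printed here, with those of Zcchc12 and Scn4b, the genes with the largest differences in each direction in Ecel1-only nuclei. They are shown as RefSeq gives them on GRCm38.p6, from 250 bases before the annotated start to 50 bases after it, read along the gene's strand. RefSeq and GENCODE starts differ for some genes. Most of the region printed for Ecel1 lies inside the GENCODE gene given above. So does most of that for Scn4b, which GENCODE starts at 45138395. Capitals mark matches on either strand to 3 promoter motifs. The TATA box was searched as the letters TATAAA. The CCAAT box was searched by the letters of its name, and the GC box as GGGCGG. No match overlapped another.
Ecel1, chr1:87156307-87156606, minus strand: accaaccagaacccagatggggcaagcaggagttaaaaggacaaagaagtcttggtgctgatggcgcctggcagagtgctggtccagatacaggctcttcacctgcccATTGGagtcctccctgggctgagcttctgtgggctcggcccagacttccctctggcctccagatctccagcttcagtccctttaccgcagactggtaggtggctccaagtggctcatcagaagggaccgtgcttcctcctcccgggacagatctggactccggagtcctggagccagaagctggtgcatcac
Spp1, the first of 2 starts, chr5:104434861-104435160, plus strand: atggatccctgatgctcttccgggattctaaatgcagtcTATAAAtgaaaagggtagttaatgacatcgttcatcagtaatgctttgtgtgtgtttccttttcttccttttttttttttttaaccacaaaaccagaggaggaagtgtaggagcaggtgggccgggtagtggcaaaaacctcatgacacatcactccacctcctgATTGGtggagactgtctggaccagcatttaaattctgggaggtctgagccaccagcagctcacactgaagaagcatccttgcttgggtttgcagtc
Zcchc12, chrX:36195654-36195953, plus strand: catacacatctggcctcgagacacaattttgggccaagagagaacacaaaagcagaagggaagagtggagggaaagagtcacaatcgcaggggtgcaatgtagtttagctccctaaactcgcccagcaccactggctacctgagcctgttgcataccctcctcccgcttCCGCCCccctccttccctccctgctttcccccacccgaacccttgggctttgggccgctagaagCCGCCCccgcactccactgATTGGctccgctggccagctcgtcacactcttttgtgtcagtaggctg
Scn4b, chr9:45138374-45138673, plus strand: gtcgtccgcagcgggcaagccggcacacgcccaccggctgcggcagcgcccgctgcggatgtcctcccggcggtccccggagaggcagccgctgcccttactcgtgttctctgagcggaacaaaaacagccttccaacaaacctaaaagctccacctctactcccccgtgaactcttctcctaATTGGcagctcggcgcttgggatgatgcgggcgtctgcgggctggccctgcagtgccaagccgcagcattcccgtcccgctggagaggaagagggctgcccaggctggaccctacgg
Ecel1 held 1 CCAAT box and no other of these motifs. Spp1 held 1 TATA box and 1 CCAAT box, Zcchc12 held 1 CCAAT box and 2 GC boxes, and Scn4b held 1 CCAAT box. Counted in bases from the start, the match of Ecel1 lay at -142 and that of Scn4b at -67. In Spp1 the TATA box lay at -211 and the CCAAT box at -46. In Zcchc12 the CCAAT box lay at 2, past the start, and the GC boxes at -81 and -17. Over all 32851 RefSeq start regions used here, 13.6% held the TATA box, 37.4% the CCAAT box and 35.7% the GC box. Over the 10525 regions of genes compared below, these shares were 6.71%, 37.7% and 61.8%. A match is a string of letters and not a site, and no measurement of these regions was made.

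Ecel1 ranged widely among its own class. It was lowest at 2.17 TPM, had a median of 437.6 TPM and reached 2614 TPM, and its mean over plates ran between 315.5 and 860.4 TPM. Only 8 of the members had less than 10 TPM, and these are the ones nearest the limit of 0. On the other side of the Spp1 limit, the lowest Spp1 among the 38 nuclei with both genes was 7.77 TPM. Those 38 had a median of 164.2 TPM of Ecel1 and 620.8 TPM of Spp1, and 7 of them had more Ecel1 than Spp1. The Gad1 and Gad2 limit cut off no nucleus that met the other criteria, and the lowest member had 290 TPM of both together.

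The genes of the rule describe the class and do not check its label. Pvalb was found in 91% of Ecel1-only nuclei and in 94.1% of the other reticular nuclei, and Six3 in 86.3% and 94.1%. The median Gad1 level was 1886 TPM in Ecel1-only nuclei and 2616 TPM in the others. Six3 and Gad1, both lower here, had been given as markers of the class. Among markers that the rule did not use in this way, 8 thalamic glutamatergic markers (Slc17a6 of the rule among them) were summed. Their level ran over plates between 5.78 and 100.6 TPM in Ecel1-only nuclei and between 35.5 and 181.1 TPM in the others. In 0.858% and 5.33% of nuclei 3 or more of these markers were found. Prox1 differed most of the 8. It was found in 14.2% of Ecel1-only nuclei and 46.5% of the others, with means over nuclei of 13.5 and 53.7 TPM. Slc17a6 was found in 3.00% and 3.28%, and Tcf7l2 in 6.44% and 7.99%. For 8 astrocyte markers the shares of nuclei with 3 or more were 0.858% and 1.64%, and for 7 microglial markers 0.858% and 0.41%. The 8 oligodendrocyte markers were found together most often. In 18% of Ecel1-only nuclei and 16.2% of the others 3 or more of them were found, with a summed level over plates between 3.77 and 3167 TPM in Ecel1-only nuclei and between 60.6 and 13481 TPM in the others. Tmem119 (microglia), Cldn5 (endothelium) and C1ql1 (oligodendrocyte precursors) were at 0 in every Ecel1-only nucleus. They were rare in the others as well (0.615%, 0.205% and 0.205% of nuclei). All other listed markers of these cell types were found in some Ecel1-only nuclei, the microglial Cx3cr1 in 29.6% of them and 35.5% of the others. Doublets were not called.

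The 95% exact Clopper-Pearson interval of the share of Ecel1-only nuclei was 28.9 to 35.9%, for counting error only. Their share was 28.9% on NeuN plates (25 to 33.1%) and 40.3% on unselected plates (33.7 to 47.1%). Single NeuN plates lay between 25.4% and 35.7%, inside the range of the 10 unselected plates with at least 10 reticular nuclei, which ran between 20% and 58.3%. The share on unselected plates leaned on 4 plates that share a name prefix, where 23 of 38 reticular nuclei were members (60.5%) and 4 had Spp1 only. On the remaining unselected plates it was 36%. All 38 nuclei with both genes stood on NeuN plates, and no reticular nucleus on unselected plates had both. The median number of genes found was 4636 in Ecel1-only nuclei, 5264 in Spp1-only nuclei, 5393 in nuclei with both and 4397.5 in nuclei with neither. In Ecel1-only nuclei alone it was 4796.5 on NeuN plates and 4320 on unselected plates. Among nuclei with at least 4000 genes found, on all plates together, the share of Ecel1-only nuclei was 31.55%. Whether finding more genes in a nucleus bears on the other shares, or on those by sort, was not tested.

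**Figure D1:**
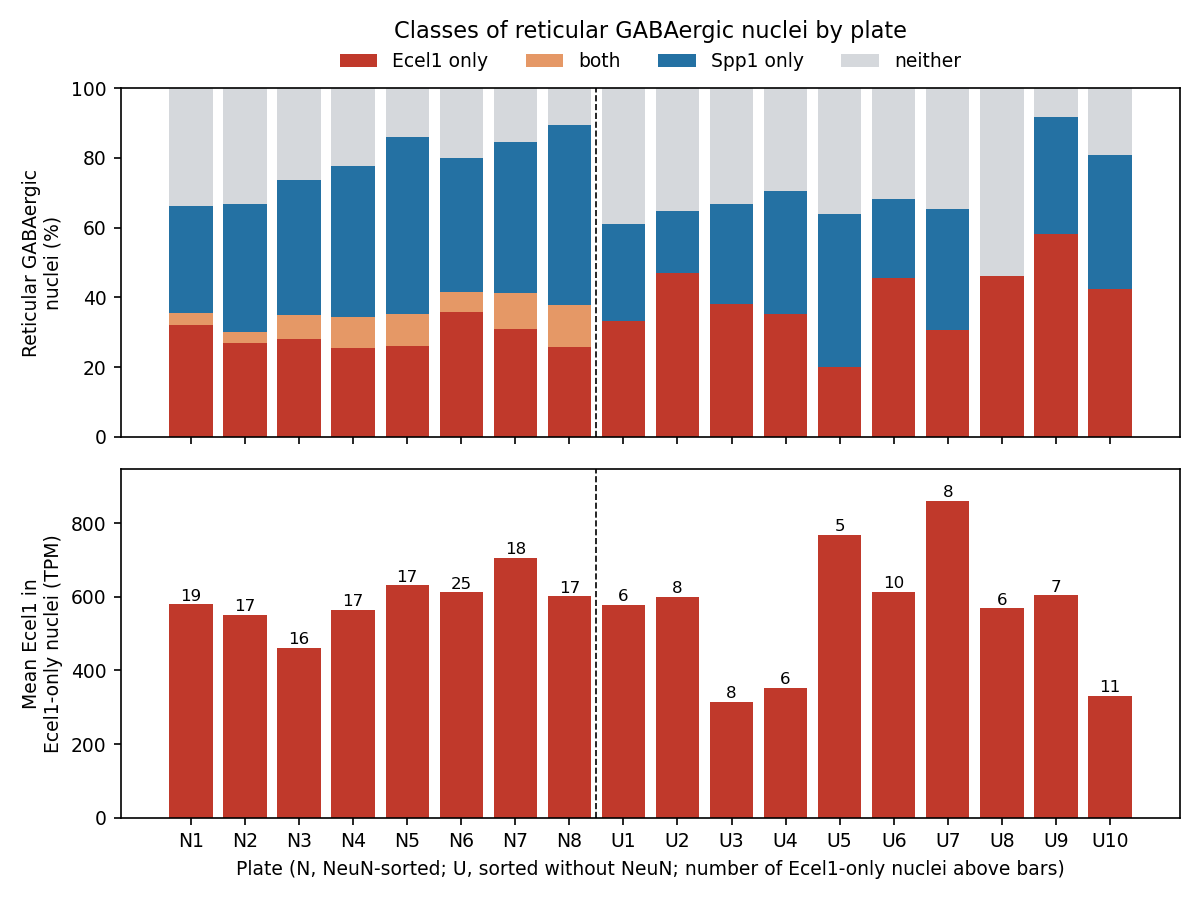
Upper panel: share (%) of reticular GABAergic nuclei in each class on the 8 NeuN-sorted plates (N) and the 10 plates sorted without NeuN that held at least 10 reticular nuclei (U). Lower panel: mean Ecel1 level (TPM) of the Ecel1-only nuclei of each plate, with their number above the bar; Ecel1-only shares lay between 25.4% and 35.7% on NeuN plates, and nuclei with both genes appear on NeuN plates alone.

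Genes other than those of the rule were compared within plates, as the mean log2(TPM + 1) of Ecel1-only nuclei minus that of the other reticular nuclei, averaged over the 18 plates with at least 5 nuclei of each. All differences below are on this log2 scale, which understates the change of low genes, and all levels are plate means in TPM. Of 10903 genes found in at least 10% of the nuclei compared, 1.74% were higher in Ecel1-only nuclei by 1 or more and 2.7% were lower by 1 or more, and the median over all genes was -0.10. Among those, 60 were higher and 74 lower on all plates but at most 1, and the 14 with the largest differences each way are called the named genes here. The split between directions depended on the scale. Genes higher made up 39.3% of those past 1, against 13.8% on the log2 ratio of mean TPM, where the median of all genes shifted to -0.25, 52.5% with a pseudocount of 10 TPM, and 55.4% with the genes found per nucleus as a covariate. On NeuN plates alone 4.93% of genes were lower, on unselected plates alone 3.09% were higher, and among nuclei with at least 4000 genes found 7.03% were lower. All 28 named genes kept their direction and stayed past 1 in each of these and in every other alternative tried. They were chosen on the same nuclei for size and for sign over plates, so this was largely set by the choice. Of 63 genes past 1 among 25 lists of neuronal genes, 35 were under 1 with a pseudocount of 10 TPM and none changed sign. Counts of listed genes past 1 below should be read against the 1.74% higher and 2.7% lower over all genes.

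Zcchc12, a zinc-finger co-activator in BMP signalling, differed most. Its plate means were lowest at 166.6, median 365.4 and highest 590.6 TPM in Ecel1-only nuclei, against 0, 41.7 and 353.7 TPM in the other reticular nuclei. It was found in 56.2% of Ecel1-only nuclei, in 5.51% of Spp1-only nuclei and in 16.3% of nuclei with neither gene. The difference was 3.83 ± 1.31 and was positive on all 18 plates, although the ranges of the plate means overlapped, as they did for all 28 named genes.

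Genes of GABA signalling differed in part. Slc12a5, which encodes the chloride exporter KCC2 on which fast GABA inhibition depends, had plate medians of 82.8 TPM in Ecel1-only nuclei and 44.8 TPM in the others. Its difference of 1.78 ± 0.89 was positive on all 18 plates, but was under 1 on the ratio of means and with a pseudocount of 10 TPM. The vesicular GABA transporter Slc32a1 (-0.25 ± 1.40), the GABA-degrading enzyme Abat (-0.15 ± 1.69) and the GABA-B receptor genes Gabbr1 (0.19 ± 1.30) and Gabbr2 (0.28 ± 1.05) differed by less than their spread. Of 10 GABA-A receptor subunits tested (of 12), Gabrb1 (1.88 ± 1.29) and Gabra3 (1.31 ± 1.58) were higher and none was lower. Over all genes 1.74% were higher and 2.7% lower. Gabrb1 was found in 42.9% of Ecel1-only nuclei and 14.55% of the others. Gabra3 was under 1 on the ratio of means, with a pseudocount of 10 TPM and among nuclei with at least 4000 genes found.

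The remaining genes named as higher are of several kinds. Stmn1 (stathmin, which destabilises microtubules) had a difference of 3.07 ± 1.75, Cpne6 (a copine, which binds membranes with calcium) one of 2.92 ± 1.28, and 6330403K07Rik one of 2.898 ± 1.39. Prmt2 (an arginine methyltransferase) was higher by 2.69 ± 1.39 and Pgrmc1 (a haem-binding membrane protein) by 2.63 ± 1.46. Several surface and membrane proteins were among them. Cd200, the ligand of a receptor on myeloid cells, had plate means between 122.2 and 787.8 TPM (median 313.3) in Ecel1-only nuclei, against 50.8 to 290.4 TPM (median 146.7) in the others, and was higher on all 18 plates by 2.48 ± 1.34. Gpm6a, a membrane glycoprotein of neurites, was higher by 2.46 ± 1.44, Kirrel3, an adhesion molecule of the immunoglobulin superfamily, by 2.43 ± 1.53, and Nsg2, an endosomal protein of neurons, by 2.41 ± 1.23. Pnmal2, a gene of the paraneoplastic antigen Ma family, was higher by 2.41 ± 1.35.

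Celf4, an RNA-binding protein of excitable cells, had been given as a marker of the class. Its plate means were lowest at 151.1, median 310.7 and highest 470.7 TPM in Ecel1-only nuclei, against 5.87, 113.5 and 189.2 TPM in the others, and the difference of 2.67 ± 1.21 was positive on all 18 plates. It was found in most nuclei of either side (97% and 82%). Among 15 neuronal RNA-binding proteins tested (of 16), Celf4 alone was higher. Rbfox3, which encodes the NeuN antigen itself, was lower (-1.29 ± 1.13), and it was found in 57.1% of Ecel1-only nuclei and 74.6% of the others. Its difference was under 1 in size with genes found per nucleus as a covariate, on the ratio of means and with a pseudocount of 10 TPM. Within Ecel1-only nuclei Rbfox3 was found in 66.4% on NeuN plates and 41.4% on unselected plates. Atp1b2, the β2 subunit of the sodium-potassium pump, which astrocytes also express, was the single pump gene of 6 that was higher (2.74 ± 1.45). Its plate median was 141.6 TPM in Ecel1-only nuclei and 58.2 TPM in the others. The astrocyte markers were given above for nuclei, and their part in this difference was not tested. Atp1b3 was lower (-1.07 ± 1.87) by less than its spread.

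**Figure D2:**
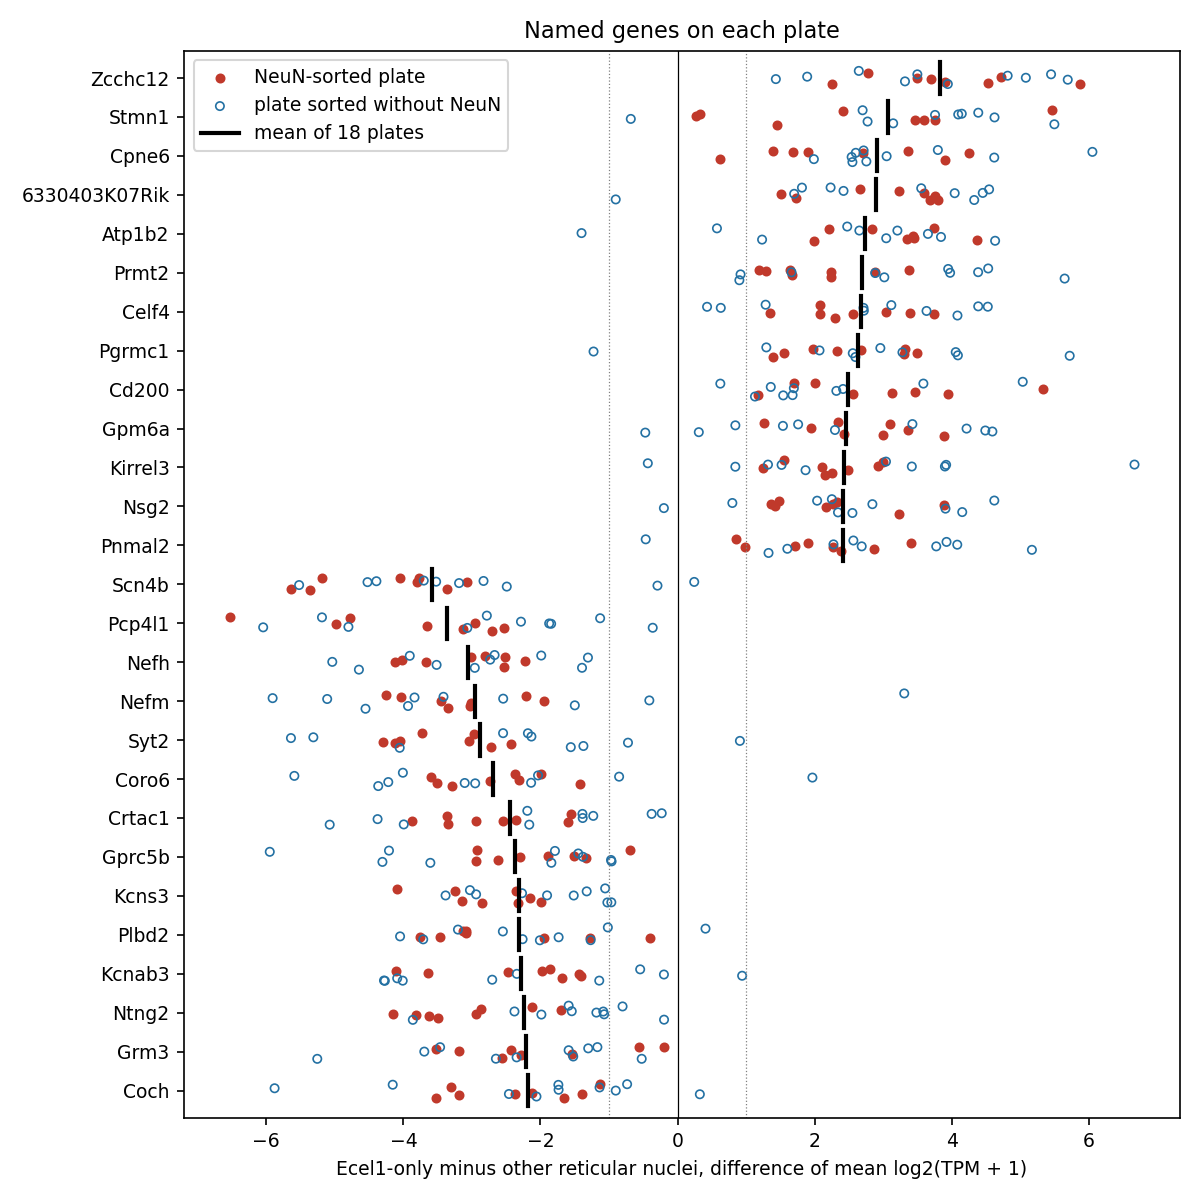
Difference of mean log2(TPM + 1), Ecel1-only minus other reticular nuclei, for 13 of the 14 genes named as higher (top) and the 14 named as lower, 1 point for each of 18 plates, with the mean as a black bar and dotted lines at 1 and -1. All points of the 8 NeuN plates (filled) lie on the side of the mean, and the points on the other side belong to plates sorted without NeuN (open).

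Scn4b, the sodium channel β4 subunit known for resurgent sodium current, had plate means between 0 and 66.2 TPM (median 14.6) in Ecel1-only nuclei, against 46.6 to 242.8 TPM (median 112.8) in the others. It was found in 12% of Ecel1-only nuclei, in 88.2% of Spp1-only nuclei and in 41.6% of nuclei with neither gene, and the difference was -3.58 ± 1.60, negative on 17 plates. Scn8a, the channel NaV1.6, was lower as well (-1.20 ± 1.05). Scn3b (2.18 ± 1.52) and Scn2b (1.36 ± 1.01), both auxiliary subunits, went the other way, and the median over the 9 sodium channel genes was 0.03. Scn8a and Scn2b were under 1 in size on the ratio of means and with a pseudocount of 10 TPM. Scn8a was so also on unselected plates alone and with nuclei without Pvalb and Six3 added to the compared side. Scn3b was found in 52.8% of Ecel1-only nuclei and 21.3% of the others.

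Potassium channels of the Kv1 and Kv3 families, which repolarise fast spikes, had the lowest median of the 25 lists (-1.27 over 9 genes tested of 12, against -0.10 for all genes). Of the list, 6 genes were lower by 1 or more and 2 higher, where 2.7% and 1.74% of all genes were. Among the lower were Kcnab3 (-2.29 ± 1.55), Kcna1 (-2.05 ± 1.63), Kcna2 (-1.68 ± 0.74), Kcnab2 (-1.67 ± 1.32) and Kcnc1 (-1.05 ± 1.09). Kcna2 was lower on all 18 plates, with plate means between 10.9 and 73.1 TPM in Ecel1-only nuclei and between 27.1 and 156.2 TPM in the others. Kcnc4 (1.35 ± 1.11) and Kcnc2 (1.20 ± 1.47) were higher, so members of the Kv3 family lay on both sides. With a pseudocount of 10 TPM the list had 3 genes lower by 1 or more and none higher, and on the ratio of means 5 lower and 1 higher. With genes found per nucleus as a covariate it had 6 lower and 2 higher. Among 22 other potassium channel genes tested (of 27), Kcns3, a silent subunit that modifies Kv2 channels, was lower on all 18 plates (-2.31 ± 0.91). Kcnip1 (-1.44 ± 1.87), Kcnk1 (-1.41 ± 1.68) and Kcnj9 (-1.10 ± 1.74) were lower by less than their spread over plates, and Kcnip2 was higher (1.36 ± 0.93).

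The T-type calcium channel genes, which carry the burst of a reticular neuron, also lay on both sides. Cacna1g had plate means between 3.15 and 82.9 TPM (median 23.3) in Ecel1-only nuclei, against 0 to 37.4 TPM (median 8.10) in the others, and was higher on 17 plates (1.52 ± 1.096). It was found in 49.4% of Ecel1-only nuclei and 17% of the others, and with a pseudocount of 10 TPM its difference was under 1. Cacna1h had plate means between 1.17 and 48.7 TPM (median 17.4) in Ecel1-only nuclei, against 5.24 to 99.6 TPM (median 61.8) in the others, and was lower on 16 plates (-1.90 ± 1.75). Cacna1i had a difference of -0.92 ± 1.33, and the SK channel gene Kcnn2, which shapes the bursts, one of -0.81 ± 1.42. For all 7 genes tested (of 10) of the T-type, SK and HCN channels the median was -0.81. Against 1.74% of all genes higher and 2.7% lower, 14 high-voltage calcium channel genes were tested (of 19). Cacnb3 (1.22 ± 1.30) and the R-type channel Cacna1e (1.19 ± 1.06) were higher and none was lower. Both were under 1 with a pseudocount of 10 TPM, Cacnb3 also on NeuN plates alone and Cacna1e on unselected plates alone. Of the 16 alternatives that leave out no single plate, Cacnb3 stayed past 1 in 11 and Cacna1e in 13.

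The 10 neurofilament and axonal cytoskeleton genes tested had a median of -0.54, against -0.10 for all genes. Of these 10, 3 were lower and 1 was higher, where 2.7% and 1.74% of all genes were. The 3 are neurofilament genes, whose products set axon calibre. Nefh had plate means between 5.71 and 167.4 TPM (median 32.1) in Ecel1-only nuclei, against 57.4 to 330.1 TPM (median 187.1) in the others, a difference of -3.06 ± 1.04 on all 18 plates. Nefm was lower on 17 plates (-2.96 ± 2.04) and Ina on 15 (-1.62 ± 1.75). The light chain Nefl had a difference of -0.90 ± 1.499. The tubulin gene Tubb3 (0.28) and the microtubule-associated protein genes Map1b (0.14) and Mapt (0.87) had positive differences under 1. Gap43, a growth-cone protein, was higher (1.70 ± 1.42) and was found in 29.6% of Ecel1-only nuclei, 3.68% of Spp1-only nuclei and 15.7% of nuclei with neither gene. Of 8 perineuronal net genes tested (of 10), the 2 that were lower were the link protein gene Hapln4 (-2.07 ± 2.02) and the proteoglycan gene Bcan (-1.51 ± 1.41). Bcan was under 1 in size on the ratio of means.

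In the release machinery, paralogues took opposite sides. Syt2, a fast calcium sensor, had plate means between 0 and 51.5 TPM (median 16.01) in Ecel1-only nuclei, against 5.97 to 278.2 TPM (median 108.99) in the others, and was lower (-2.89 ± 1.63). Syt1, its relative in most forebrain synapses, was higher by 1.07 ± 0.87 and was found in nearly every nucleus. Vamp1 was lower (-2.60 ± 2.32), with a plate median of 244.9 TPM in Ecel1-only nuclei and 633.97 TPM in the others. Vamp2 was higher by 1.36 ± 1.07, at 220.1 TPM in Ecel1-only nuclei and 114.4 TPM in the others, and Syn2, a vesicle-binding synapsin, by 1.40 ± 1.08. These were 3 genes higher and 2 lower of 19 tested (of 22), where 1.74% and 2.7% of all genes were. Syt1, Vamp2 and Syn2 were under 1 on the ratio of means, and Syt1 and Syn2 also with a pseudocount of 10 TPM. Syt1 stayed past 1 in only 8 of the 16 alternatives that leave out no single plate. It was under 1 on NeuN plates alone, among nuclei with at least 4000 genes found and with genes found per nucleus as a covariate.

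Among the other genes named as lower, Pcp4l1, a relative of the calmodulin-binding protein PEP-19, had a difference of -3.37 ± 1.69, with a plate median of 130.1 TPM in Ecel1-only nuclei and 627.7 TPM in the others. Coro6 (-2.70 ± 1.64) encodes an actin-binding coronin, Crtac1 (-2.44 ± 1.36) and Coch (-2.18 ± 1.44) proteins of the extracellular matrix, Gprc5b (-2.37 ± 1.40) an orphan receptor, Plbd2 (-2.31 ± 1.25) a lysosomal protein and Ntng2 (-2.25 ± 1.20) the membrane-anchored netrin-G2. Ntng2 was found in 9.44% of Ecel1-only nuclei and 64.3% of Spp1-only nuclei. Grm3 (-2.21 ± 1.31), a metabotropic glutamate receptor that couples to inhibitory G proteins, was lower on all 18 plates, and Grm7 had a difference of -1.01 ± 1.33. Grm5, which couples to phospholipase C, was higher (1.69 ± 1.06), with plate medians of 73.2 TPM in Ecel1-only nuclei and 23.4 TPM in the others.

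Among glutamate receptor channels, 2 genes were lower and 1 was higher by 1 or more, where 2.7% and 1.74% of all genes were. Grin2c (-1.51 ± 1.39) and Grin2a (-1.24 ± 0.61) were lower among 5 NMDA receptor genes tested (of 6), and Grik2, a kainate receptor subunit, was higher (1.23 ± 1.22) among 9 AMPA and kainate receptor genes. Of 7 receptors for acetylcholine, noradrenaline and serotonin tested (of 20), Htr2c was higher (1.28 ± 0.95) and Adra1d lower (-1.23 ± 0.91). Grin2a, Grin2c, Grik2, Htr2c, Adra1d, Grm5 and Grm7 were under 1 in size with a pseudocount of 10 TPM, and Grik2 and Grm7 also on the ratio of means. Htr2c and Grm7 were so on unselected plates alone as well. Grik2 stayed past 1 in 10 of the 16 alternatives that leave out no single plate. It was under 1 on NeuN plates alone and among nuclei with at least 4000 genes found.

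Neuropeptide genes had the highest list median, 1.14 over the 5 tested of 19, but the other 14 were found in too few nuclei to be compared. Sst (somatostatin) had plate means between 389.4 and 3302 TPM (median 1673) in Ecel1-only nuclei, against 244.6 to 2019 TPM (median 702.4) in the others, and was higher on 16 of 18 plates (2.19 ± 1.92). Trh (thyrotropin-releasing hormone) was higher by 1.67 ± 1.65 and Pnoc (prepronociceptin) by 1.14 ± 1.44. Npy (-0.38 ± 2.1998) and Cck (-0.13 ± 1.02) were not past 1. Among nuclei with at least 4000 genes found, Trh and Pnoc were under 1 and the list median was 0.64. Pnoc was under 1 also on unselected plates alone and with a pseudocount of 10 TPM. Within the class, Sst was found in 71.2% of members, Trh in 46.8% and both in 32.6%. Pvalb and Sst were found together in 66.5% of members. Pvalb is a gene of the rule and was found in 91% of members, so this overlap mostly follows from the share with Sst.

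Of 8 calcium-binding genes tested (of 12), 3 were higher and 1, Pcp4l1, was lower, where 1.74% and 2.7% of all genes were. The 3 are calcium sensors related to hippocalcin, Hpca (2.05 ± 1.53), Ncald (1.49 ± 1.44) and Hpcal4 (1.28 ± 1.39). Their relatives Hpcal1 (-0.57) and Vsnl1 (-0.27) were not past 1. Hpcal4 and Ncald were under 1 with a pseudocount of 10 TPM. Hpcal4 was so also on NeuN plates alone and among nuclei with at least 4000 genes found. Calb1 had a difference of 0.00 ± 0.73.

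The remaining lists held at most 3 genes past 1. Of 23 transcription factors tested (of 32) only Rora reached 1 (1.001 ± 1.55). Rora was under 1 on the deposited scaling, and stayed past 1 in 10 of the 16 alternatives that leave out no single plate. None of 25 axon guidance genes tested (of 29) and none of 16 respiratory chain genes did, against 1.74% of all genes higher and 2.7% lower. Of 14 cadherins tested (of 21), 3 were lower, Pcdh9 (-1.72 ± 1.81), Cdh6 (-1.14 ± 1.17) and Pcdh7 (-1.07 ± 1.07). All 3 were under 1 in size on the ratio of means, Cdh6 and Pcdh7 also with a pseudocount of 10 TPM, and Cdh6 with genes found per nucleus as a covariate. A single gene was lower in each of the lists of neurexins and related genes (Lrrtm1, -1.37 ± 1.79), immediate early genes (Arc, -1.09 ± 2.15) and neurodevelopmental disorder genes (Shank2, -1.32 ± 1.09), with 17, 6 and 13 genes tested. All 3 were under 1 in size with a pseudocount of 10 TPM. Lrrtm1 was so also on the ratio of means and with nuclei without Pvalb and Six3 added to the compared side, and Arc with those nuclei added, on NeuN plates alone and with genes found per nucleus as a covariate. Ptchd1, a disorder gene studied in the TRN, had a difference of 0.12 ± 1.41.

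**Figure D3:**
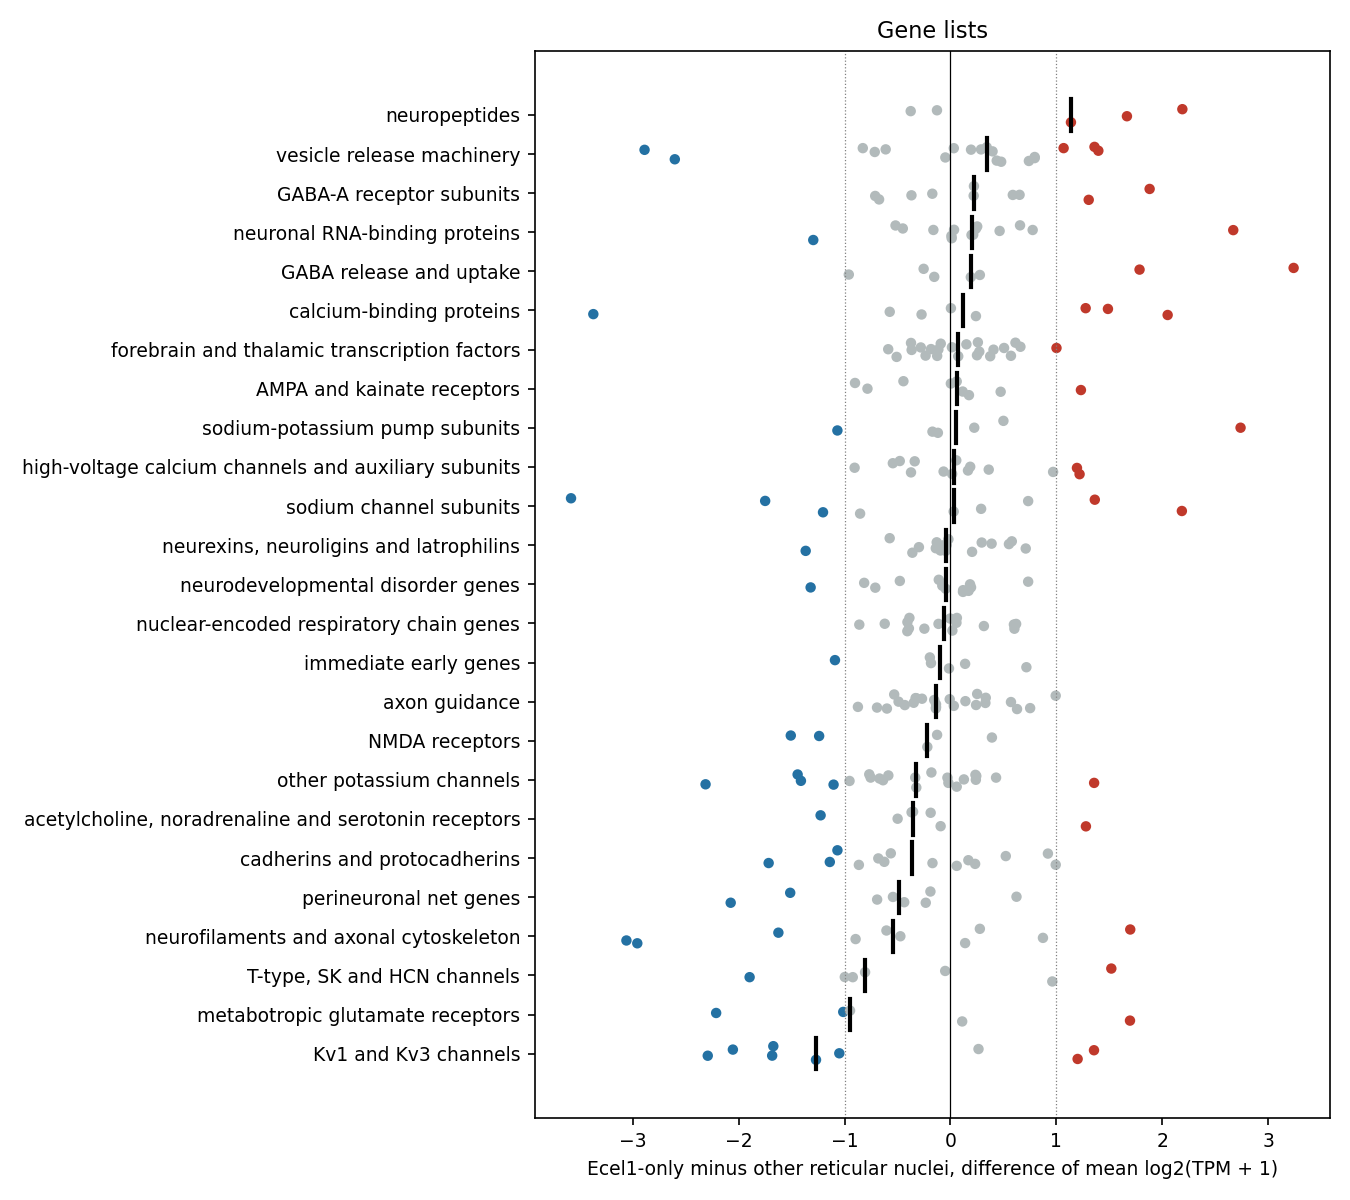
Difference of mean log2(TPM + 1), Ecel1-only minus other reticular nuclei, for every tested gene of the 25 lists (1 point for each gene), with the list median as a black bar and dotted lines at 1 and -1. Neuropeptides lie at the top with a median of 1.14, Kv1 and Kv3 channels at the bottom with -1.27, and points past 1 are red where higher and blue where lower.

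The other reticular nuclei are a mixture, and the differences depended on which of them stood on the compared side. Set against Spp1-only nuclei alone (15 plates), 2.53% of 10991 genes were higher in Ecel1-only nuclei by 1 or more and 9.32% were lower, with a median over all genes of -0.23. Set against nuclei with neither gene (17 plates), 1.89% of 10704 genes were higher and 0.542% lower, with a median of 0.01. These comparisons share the Ecel1-only nuclei, so their values are given side by side. Scn4b was at -5.62 against Spp1-only nuclei and at -1.56 against nuclei with neither gene, Nefh at -4.62 and -1.45, and Syt2 at -4.35 and -0.99. Zcchc12 was at 4.39 and 3.32 in the same order, and Celf4 at 3.66 and 1.56. Cacna1h was at -3.81 and -0.46, and Cacna1g at 1.99 and 1.16. All 28 named genes kept their sign against both classes, but they were chosen on a comparison that holds both. The number of genes found moved in the same order, since Spp1-only nuclei had the most and nuclei with neither gene the fewest of these 3 classes. Among nuclei with at least 4000 genes found, 3.70% of genes were lower against nuclei with neither gene.

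The named genes were found together in single nuclei. Of the 14 named as higher, a median of 10 were found in an Ecel1-only nucleus, 8 in a nucleus with both genes, 6.5 in a nucleus with neither and 5 in a Spp1-only nucleus. Of the 14 named as lower the medians were 6, 12, 8 and 13 in the same classes. More of the higher than of the lower genes were found in 77.7% of Ecel1-only nuclei, against 15.8% of nuclei with both, 32.02% of nuclei with neither and 2.21% of Spp1-only nuclei. These genes were chosen on the same nuclei, so the shares describe the classes and support nothing. Nuclei with both Ecel1 and Spp1 were closer to Spp1-only nuclei in the lower genes and lay between the classes in the higher ones.

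**Figure D4:**
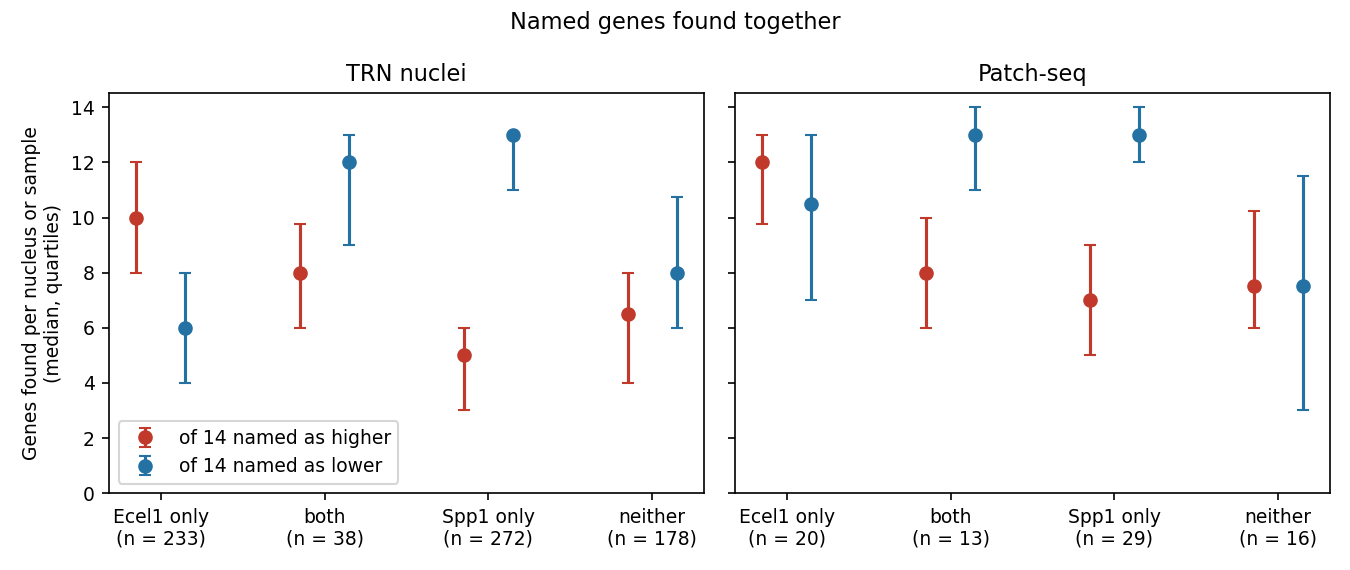
Number of the 14 genes named as higher (red) and of the 14 named as lower (blue) found in a nucleus (left) or Patch-seq sample (right) of each class, as the median with bars from the lower to the upper quartile. Ecel1-only nuclei had medians of 10 and 6, and Spp1-only nuclei 5 and 13.

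One plate stood apart. A plate sorted without NeuN with 6 Ecel1-only and 7 other reticular nuclei, none of which had Spp1, gave 9 of the 16 plate values whose sign went against the mean of a named gene. On it Atp1b2 was at -1.40 and Nefm at 3.31. All 8 NeuN plates had the sign of the mean for all 28 named genes, whose choice allowed at most 1 plate of the other sign. Without that plate 1.82% of genes were higher and 3.66% lower by 1 or more.

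Within the class, the sort was compared as well, as Ecel1-only nuclei of 8 NeuN plates minus those of 11 unselected plates. Of 10743 genes 11.4% were higher by 1 or more on NeuN plates and 0.512% lower, the median over all genes being 0.34, with more genes found per nucleus on NeuN plates as given above. All 8 NeuN plates share a name prefix that no unselected plate carries, so the sort and the series of plates cannot be told apart, here or in the shares by sort. Plate means of the log2 values lay fully apart and differed by 1 or more for 3 genes, among them Drg2 (2.15) and Rab8a (2.15). Of the 28 named genes 7 differed by 1 or more between the sorts, among them Gprc5b (1.99) and Coch (1.61). Sst had a difference of -1.33, with a mean of 1052.4 TPM in members of NeuN plates and 2199 TPM in members of unselected plates, while Zcchc12 had a difference of -0.28 and Scn4b one of 0.02.

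The Patch-seq samples are cells that the choice of the named genes did not use. By the same rule 20 of 78 reticular samples were Ecel1-only (25.6%, 16.4 to 36.8%), and their Ecel1 ran between 1 and 663.6 TPM with a mean of 199.6 TPM. Of 13616 genes, 11.8% were higher by 1 or more than in the other 58 samples and 2.75% were lower, with a median over all genes of 0.17. Signs were uneven over all genes, with 8480 positive and 5136 negative differences, against which the counts of signs below should be read. The median number of genes found was 7813 in Ecel1-only samples and 7015 in the others. All 14 genes named as higher were higher by 1 or more, with a median of 2.53. Among them were Zcchc12 (3.87), Atp1b2 (3.60) and Cd200 (3.33). Zcchc12 was found in 14 of 20 Ecel1-only and 13 of 58 other samples. Of the 14 named as lower, 11 had a negative difference and 8 were lower by 1 or more, with a median of -1.13. Syt2 (-3.46), Scn4b (-3.42) and Nefm (-2.52) were lowest, and Kcns3 (0.23), Plbd2 (0.12) and Crtac1 (0.08) were not negative. Wider sets of genes are given beside these. Of the 60 genes higher in nuclei on all plates but at most 1, 45 were higher by 1 or more in Patch-seq samples and 3 negative (median 1.46), and of the 74 lower, 22 were lower by 1 or more and 14 positive (median -0.71). Of all 190 genes higher by 1 or more in nuclei, 120 were so in Patch-seq samples and 17 were negative (median 1.23). Of all genes lower by 1 or more in nuclei, 67 were so in Patch-seq samples, 88 were positive and 11 of these were higher by 1 or more (median -0.41). No label names a batch of these samples. The column names put 7 and 34 samples under a shared prefix each and leave 54 of mixed names. Averaged over the set of 34 and the remainder of 54, which held at least 3 samples of each class, 14 of the higher and 12 of the lower genes kept the direction. The median over all genes in this average was 0.21.

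Among genes outside the named ones, Sst was found in 19 of 20 Ecel1-only and 35 of 58 other samples and was higher by 4.12, and Scn3b was higher by 3.93. Cacna1g was higher (1.27) and Cacna1h lower (-1.56). Kcna1 (-0.47) and Kcna2 (-0.25) were not past 1, and the median of the 9 Kv1 and Kv3 genes was -0.47. In these samples 3 or more oligodendrocyte markers were found in 95% of the Ecel1-only and 86.2% of the others, 3 or more microglial markers in 40% and 44.8%, and 3 or more astrocyte markers in 50% and 27.6%. The summed oligodendrocyte level went the other way. It ran between 70.3 and 22083 TPM (median 801.2) in Ecel1-only samples and between 0.45 and 50920 TPM (median 2753) in the others. The summed astrocyte level ran between 0 and 473.04 TPM (median 18.005) in Ecel1-only samples and between 0 and 5077.5 TPM (median 15.185) in the others. The summed microglial level ran between 0.39 and 4087 TPM in Ecel1-only samples and between 0 and 12064 TPM in the others. The part of these markers in the differences, that of Atp1b2 among them, was not tested.

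**Figure D5:**
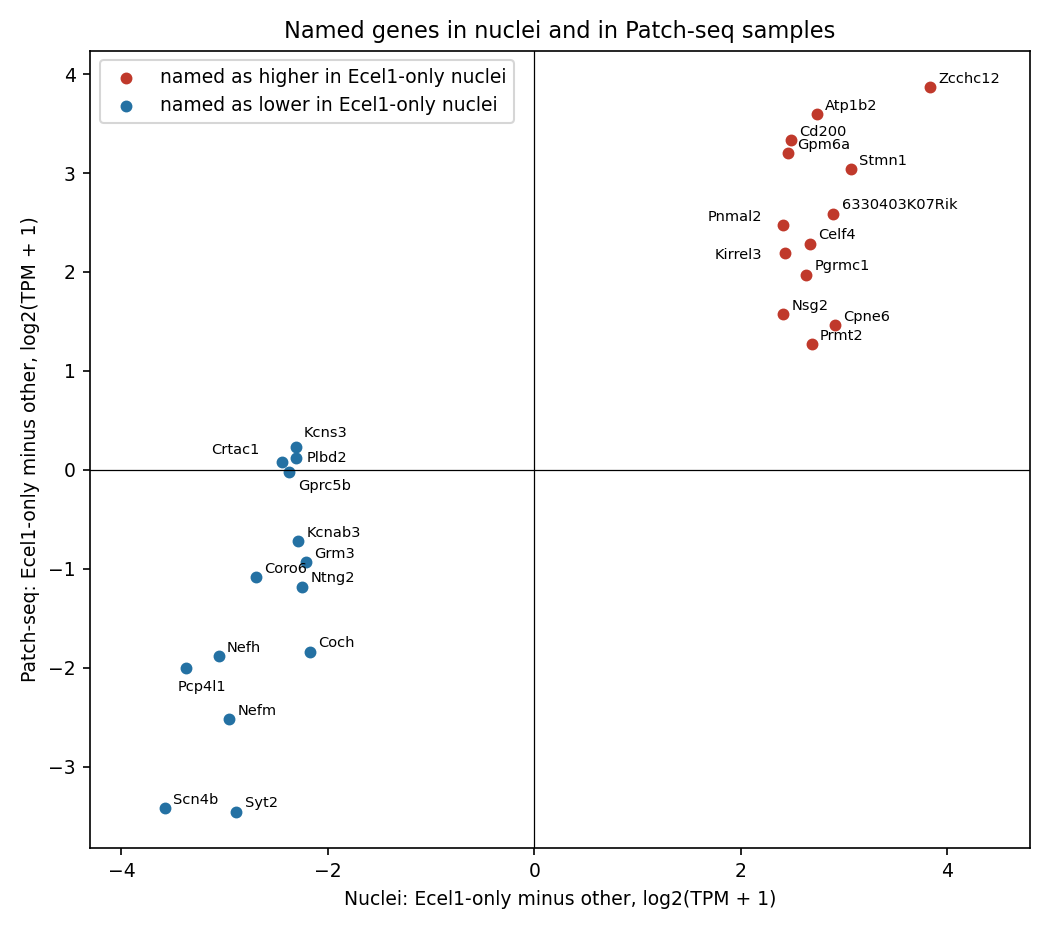
Differences of mean log2(TPM + 1), Ecel1-only minus other, of 27 of the 28 named genes in nuclei (horizontal axis) and in Patch-seq samples (vertical axis). The genes named as higher lie above 1 on both axes, and Kcns3, Plbd2 and Crtac1 lie above 0 in Patch-seq samples while lower in nuclei.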

How the data were processed

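Per the labels, nuclei came from a sucrose gradient and were placed by flow sorting in 96-well plates for a modified Smart-seq2 protocol. Per the submitters' processing notes the tools included RSEM, Bowtie, TopHat2 2.0.10 and Seurat 2.2.0, with the mm10 build, and their roles and order are not given in the sources used here. The authors deposited Patch-seq values as TPM. The TRN table they deposited holds natural log values, ln(1 + TPM × a factor), with a factor for each column between 0.288 and 6.03 (median 0.777), as the values show. The natural log was undone and each of 1687 columns scaled to 1000000. Low values fell on steps of 0.01 TPM (236907 of 236907 below 2 TPM, with a tolerance of 0.1 steps), to which TPM were rounded. No 2 columns were identical. TPM correct for length and library size, so an abundant transcript lowers all others in its nucleus.

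The classes held 233 Ecel1-only nuclei (146 on NeuN plates, 87 unselected), 272 Spp1-only, 178 with neither gene and 38 with both, of 721 reticular GABAergic nuclei. They came from 753 NeuN-sorted and 694 unselected TRN nuclei with values. Plates with at least 5 nuclei of each class (221 Ecel1-only and 481 other nuclei in all; 200 against 263 Spp1-only; 214 against 172 with neither) were compared within plates on log2(TPM + 1), a pseudocount of 1 TPM. Each plate counted once, and genes had to be found in 10% of the nuclei compared. A gene is past 1 where its mean difference is 1 or more either way: 190 genes higher and 294 lower against all others, 278 and 1024 against Spp1-only nuclei, 202 and 58 against nuclei with neither gene, 1613 and 374 in Patch-seq samples, and 1225 and 55 between sorts. Named genes are those past 1 with the same sign on all plates but at most 1, the 14 largest each way. The labels name no animal, so no p-value was computed from nuclei. The members, gene lists and comparisons were chosen with earlier results of these data known. Ecel1, Celf4, Cacna1g, Six3 and Gad1 had been given as markers of the class. Of these, Six3 (-0.80) and Gad1 (-0.37), both genes of the rule, had negative differences. The method was tested on simulated data, with classes shuffled within plates and known changes added. Alternatives are in the closing section. Versions were 3.11.15 for Python, 2.4.6 for numpy, 2.3.3 for pandas, 1.17.1 for scipy and 3.10.9 for matplotlib. Start regions came from RefSeq, with those of chromosome 18, which holds Celf4, left out. Of the 28 named genes 18 had one among the regions used. Gene positions came from GENCODE. Values of some genes, counted in the totals, are not reported here.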

Additional observations from a re-analysis of the deposited data

How the results depend on the processing

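Numbers of genes past 1 are given here as percents of the genes tested in each comparison. Against all other reticular nuclei (1.74% higher and 2.7% lower), the log2 ratio of mean TPM gave 12.35% lower, a pseudocount of 10 TPM 0.578% higher and 0.523% lower, and one of 0.1 TPM 3.89% and 8.38%. NeuN plates alone gave 4.93% lower and unselected plates alone 3.09% higher. Nuclei with at least 4000 genes found gave 7.03% lower, nuclei without 3 or more oligodendrocyte markers 5.21% lower, and the addition of nuclei without Pvalb and Six3 to the compared side 1.61% lower. Against Spp1-only nuclei a pseudocount of 10 TPM gave 0.955% higher and 1.96% lower. Against nuclei with neither gene it gave 0.252% higher and 0.0561% lower, and nuclei with at least 4000 genes found gave 3.70% lower. The alternatives against these 2 classes, genes found as a covariate and the removal of the 4 plates that share a name prefix were chosen after seeing the data. A larger pseudocount shrinks all differences by construction, and the cause of the other changes was not tested.

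Leaving out 1 plate at a time gave 1.72 to 1.94% higher and 2.59 to 3.66% lower. All 28 named genes stayed past 1 in their direction under the 16 alternatives that leave out no single plate and without each plate. Their choice on the same nuclei, by size and by sign over plates, largely set this. Of 63 listed genes past 1, 22 stayed past 1 in all 16 and none changed sign. The share of Ecel1-only nuclei was 31.2% with Ecel1 of at least 10 TPM and 31.55% in nuclei with at least 4000 genes found. No paired analysis was possible because no test was made and no label numbers samples that belong together in different groups; the differences themselves were taken within plates. Depth is unknown, so a gene at 0 may only have been missed.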
